A study of Mus musculus with 6 samples.

Results

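The genes described here are 10 components of the liver's insulin and growth hormone axis: Insr, Irs1, Igfbp1, Igfbp2, Igf1, Igfals, Ghr, Socs2, Stat5a and Stat5b. They were taken as every probe set annotated to exactly 1 of these symbols, which gave 22 probe sets of 28898 with 1 symbol. Each gene is represented by its probe set of highest mean over the 6 arrays. All 10 genes had such a probe set above the limit for dim signal used here (log2 2.66, which 40% of probe set means fall below), as had 12475 of 17097 genes in all.

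Insulin binds its receptor, encoded by Insr, and signals through docking proteins such as Irs1, and in liver it represses Igfbp1 strongly. Growth hormone binds the receptor encoded by Ghr, which activates the transcription factors STAT5A and STAT5B. These drive Igf1, Igfals and the feedback inhibitor Socs2, so the liver supplies most circulating IGF-1, the acid-labile subunit that holds it in blood, and several of its binding proteins.

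RNA came from livers of wild-type mice and of mice with a knockout of Nrg4, the gene of the secreted ErbB ligand neuregulin 4, with the strain of both given as C57BL/6. High-fat feeding began at 3 months in both genotypes and lasted 8 weeks, and livers were taken from random-fed animals. Each genotype had 3 arrays, each with its own pooled RNA. How many mice made up a pool, their sex and the design of the allele are not given in the labels or the series text.

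The labels were checked with Nrg4 itself, which read 4.77 to 4.94 in wild type and 2.43 to 2.64 in the knockout. It was lower in the knockout (limma adjusted p = 4.75e-05, n = 3 arrays each), but all knockout arrays lay below the dim limit, so the measured fall of 2.30 on the log2 scale is taken against a dim signal and its true size is not known. The 9 hepatocyte markers with a probe set read between 8.72 and 12.41 on all arrays. Of these, 3 had a higher and 6 a lower knockout mean (median log2 change -0.02). Of the markers of other cell types, all 12 of macrophages and Kupffer cells, 8 of 10 of sinusoidal endothelium and all 9 of stellate cells had a higher knockout mean, where 36.6% of all genes had a lower one. In the limma test 0 of these 31 passed at adjusted p under 0.05, against 0.0401% of all genes. An unadjusted p under 0.05 was found for 13 of them, against 9.55% of all genes. Lymphocyte markers were higher in 7 of 8 and cholangiocyte markers in 2 of 2, while the adipocyte, pancreatic and skeletal muscle lists, with 1, 3 and 3 genes tested, had median log2 changes of -0.05, -0.03 and 0.004. The macrophage list averaged 6.11 to 6.31 in wild type and 6.16, 6.80 and 6.92 in the knockout. Control probe sets for 18S ribosomal RNA were lower on every knockout array than on any wild-type array: 7.45 to 7.73 in wild type and 6.67 to 6.89 in the knockout at the 3' end, 7.92 to 8.14 and 5.74 to 6.59 in the middle, and 8.12 to 8.80 and 5.61 to 6.71 at the 5' end. The 5' minus 3' difference of the control transcripts Actb and Gapdh averaged -1.31 for knockout replicate 1 against -0.96 to -0.65 elsewhere. In bulk liver, fewer cells of a type and less RNA per cell cannot be told apart. The part of these measures in the results below was not tested.

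None of the 10 genes passed the comparison of knockout with wild type. Adjusted p-values from limma ran from 0.539 to 0.982, against 5 genes passing of 12475 (0.0401%). At an unadjusted p under 0.05 the count was also 0 of 10, where 9.55% of all genes passed. Knockout means were lower for 6 genes and higher for 4, and 36.6% of all genes had a lower mean. The median log2 change was -0.02 over the 10 genes and 0.04 over all genes tested. The median size of the change, direction aside, was 0.096 for the 10 genes and 0.096 for all genes. With 3 arrays against 3, an exact permutation test cannot give a p below 0.1.

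The intervals say how large a difference the arrays leave possible. For Ghr, Igf1, Igfals, Insr and Stat5b, 5 of the 10 genes, the 95% interval of the difference at the brightest probe set excluded a change of 1.3-fold or more in either direction. The interval of Stat5b only just did so, reaching 1.29-fold. These are intervals of array signal in the main fit, not adjusted for the number of genes. A dimmer Ghr probe set did not exclude it, with an interval from -0.43 to 0.12 on the log2 scale. With Irs1 and Stat5a, 7 genes excluded 1.5-fold. Igfbp1, Socs2 and Igfbp2 did not, and their intervals reached 1.55-fold, 1.53-fold and 1.77-fold.

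**Figure D1:**
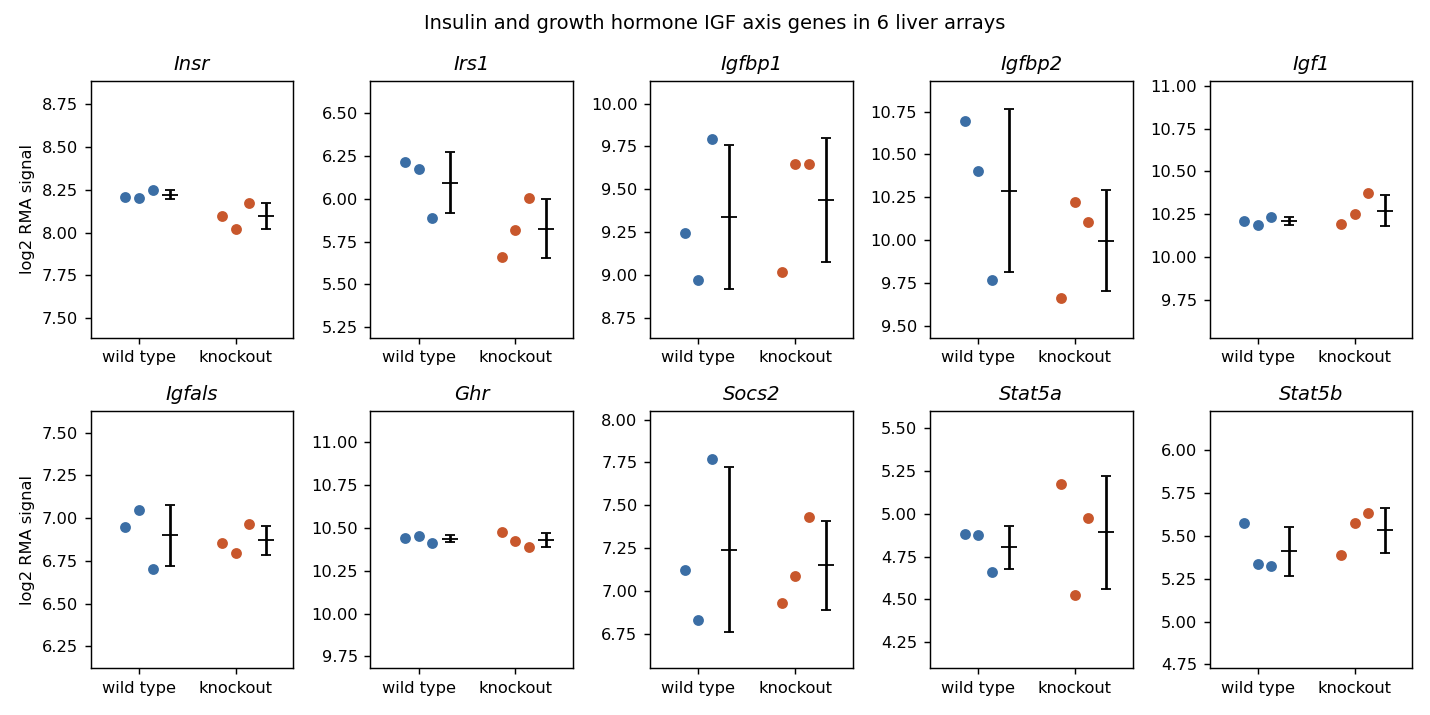
Log2 RMA signal of the 10 genes (vertical axis, 1.5 log2 units high in every panel) in each wild-type and knockout array, with the mean and SD of the 3 arrays beside the points. Insr is the only panel in which the genotypes do not overlap, and Igfbp1, Igfbp2 and Socs2 spread far more between pools of 1 genotype than Ghr or Igf1.

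The 2 stretches of promoter below are shown because Igfbp1 is the classical target of insulin repression and because the same short motif occurs before Irs1. Each is the 250 bases upstream of a RefSeq start in GRCm38.p6, at chr11:7197537-7197786 on the plus strand for Igfbp1 and at chr1:82291440-82291689 on the minus strand for Irs1. Capitals mark CAAAACA, a core of the insulin response element, or its reverse complement TGTTTTG.
Igfbp1: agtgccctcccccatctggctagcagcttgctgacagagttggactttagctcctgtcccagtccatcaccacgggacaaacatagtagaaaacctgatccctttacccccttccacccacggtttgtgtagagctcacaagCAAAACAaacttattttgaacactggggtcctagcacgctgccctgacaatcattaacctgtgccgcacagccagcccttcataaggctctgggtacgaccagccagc
Irs1: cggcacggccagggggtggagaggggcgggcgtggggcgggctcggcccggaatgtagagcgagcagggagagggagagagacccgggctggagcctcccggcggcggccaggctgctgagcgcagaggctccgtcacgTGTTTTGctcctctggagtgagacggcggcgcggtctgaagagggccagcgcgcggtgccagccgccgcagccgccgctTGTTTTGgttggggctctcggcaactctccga
The match in Igfbp1 lies 108 to 102 bases upstream of the start, and those in Irs1 lie at 111 to 105 and at 32 to 26 bases. RefSeq windows were matched for 8 of the 10 genes, 14 windows in all. This motif was found in 2 of the 14, and in 5.56% of all 32851 such windows. The STAT motif TTCNNNGAA, which reads alike on both strands, was found in 2 of the 14 windows, both of Igfals, and in 7.02% of all windows. GTAAACA, 1 form of the FOXO motif, was searched on both strands and found in 1 Igfals window and in 3.17% of all. A window without these letters is not thereby shown to lack FOXO sites. No match of one motif overlapped a match of another in the 14 windows. A match describes letters in a window and not a bound site.

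On the insulin side, the receptor gene Insr read 8.21, 8.20 and 8.25 in wild type and 8.09, 8.02 and 8.17 in the knockout. Every knockout array thus lay below every wild-type array, by a small margin. Insr was the only one of the 10 genes whose genotypes did not overlap. Separation with the knockout lower was thus found in 1 of 10, and in 3.93% of all genes. With the knockout higher it was found in 0 of 10, and the share of all genes was not counted. No excess is read from 1 gene. The log2 change of Insr was -0.12 (SE 0.08, limma adjusted p = 0.667), and the interval reached from 1.24-fold lower to 1.05-fold higher. The 2 other Insr probe sets read close to the limit for dim signal, with means of 2.85 and 2.84 in wild type and 2.81 and 2.81 in the knockout, so they bear little on this difference.

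Irs1, the docking protein that links the receptor to phosphatidylinositol 3-kinase, had the lowest p-value of the 10 genes. Its single probe set read 6.22, 6.17 and 5.89 in wild type and 5.66, 5.82 and 6.00 in the knockout. The genotypes overlapped, since knockout replicate 3 lay above wild-type replicate 3. The log2 change was -0.27 (SE 0.12, limma adjusted p = 0.539), a mean 1.20-fold lower in the knockout with an interval from 1.47-fold lower to 1.01-fold higher.

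Igfbp1 encodes an IGF-binding protein that insulin lowers acutely. It read 9.25, 8.97 and 9.79 in wild type and 9.02, 9.65 and 9.65 in the knockout. High and low arrays occurred in both genotypes, so the groups overlapped fully, with a log2 change of 0.10 (SE 0.23, limma adjusted p = 0.921). The change was 0.33 without wild-type replicate 3 and -0.08 without wild-type replicate 2, and no run without an array passed.

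Igfbp2, another binding protein, which is made mainly in liver and is lowered in fatty liver and obesity, showed the largest mean difference. It read 10.70, 10.40 and 9.76 in wild type and 9.66, 10.22 and 10.10 in the knockout. Wild-type replicate 3 lay with the knockout arrays. The log2 change of -0.29 (SE 0.23, limma adjusted p = 0.724) became -0.55 without that array (adjusted p = 0.496), -0.09 without wild-type replicate 1 and -0.12 without knockout replicate 1, so its size rests on single arrays.

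On the growth hormone side, the receptor gene Ghr was the steadiest of the 10. It read 10.44, 10.46 and 10.41 in wild type and 10.47, 10.42 and 10.39 in the knockout, with a log2 change of -0.01 (SE 0.08, limma adjusted p = 0.982). The pooled SD within genotypes, 0.03, stood at the 1.31 percentile of all genes tested. The other Ghr probe sets gave log2 changes of 0.12 and -0.15, and neither passed.

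Stat5a and Stat5b are neighbouring, closely related genes of transcription factors. Stat5a read 4.88, 4.88 and 4.66 in wild type and 5.17, 4.53 and 4.98 in the knockout, where the knockout arrays spanned both the highest and the lowest value (log2 change 0.09, SE 0.16, limma adjusted p = 0.894). Stat5b read 5.58, 5.33 and 5.32 in wild type and 5.39, 5.58 and 5.63 in the knockout, again with overlap (log2 change 0.12, SE 0.11, limma adjusted p = 0.759). These are levels of transcript and say nothing of STAT5 phosphorylation, through which the proteins are activated.

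Igf1, the main growth hormone target, had 4 bright probe sets that did not move alike. The brightest read 10.21, 10.18 and 10.24 in wild type and 10.19, 10.25 and 10.37 in the knockout, a log2 change of 0.06 (SE 0.09, limma adjusted p = 0.853). The next read 10.21, 10.18 and 10.15 in wild type and 10.09, 10.08 and 10.001 in the knockout, and here every knockout array lay below every wild-type array (log2 change -0.12, limma adjusted p = 0.735 in the fit of every probe set). The other pair gave -0.09 and -0.10. The direction for Igf1 therefore depends on the probe set, while each of the 4 intervals lay between -0.30 and 0.25 on the log2 scale.

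Igfals, the acid-labile subunit, read 6.95, 7.05 and 6.70 in wild type and 6.85, 6.79 and 6.96 in the knockout. All knockout values lay inside the wild-type range (log2 change -0.03, SE 0.11, limma adjusted p = 0.953).

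Socs2, the feedback inhibitor induced by STAT5, read 7.12, 6.83 and 7.77 in wild type and 6.93, 7.08 and 7.43 in the knockout. The wild-type arrays alone spanned 0.94 log2 units and held both the highest and the lowest value (log2 change -0.09, SE 0.23, limma adjusted p = 0.924). Another Socs2 probe set above the dim limit read 6.70, 6.23 and 7.33 against 6.38, 6.76 and 6.999 and gave -0.04. Its highest and lowest arrays were the same as those of the brightest probe set. The third, just above the dim limit, read 2.76, 2.76 and 2.99 against 3.13, 2.88 and 3.08 and went the other way at 0.19 (limma adjusted p = 0.668 in the fit of every probe set). The change of the brightest was 0.17 without wild-type replicate 3 and -0.30 without wild-type replicate 2.

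Over all 22 probe sets, 13 had a lower and 9 a higher knockout mean, and 41.8% of all probe sets with 1 symbol had a lower one. In limma's fit of every probe set, 0 passed at adjusted p under 0.05 (0.0242% of 28898 probe sets) or at an unadjusted p under 0.05 (8.48%). Above the dim limit, the genotypes did not overlap in 2 of 20 probe sets, 1 each of Insr and Igf1, both with the knockout lower. Of all 19041 probe sets above this limit, 5.02% separated with the knockout lower. The share that separated with the knockout higher was not counted.

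**Figure D2:**
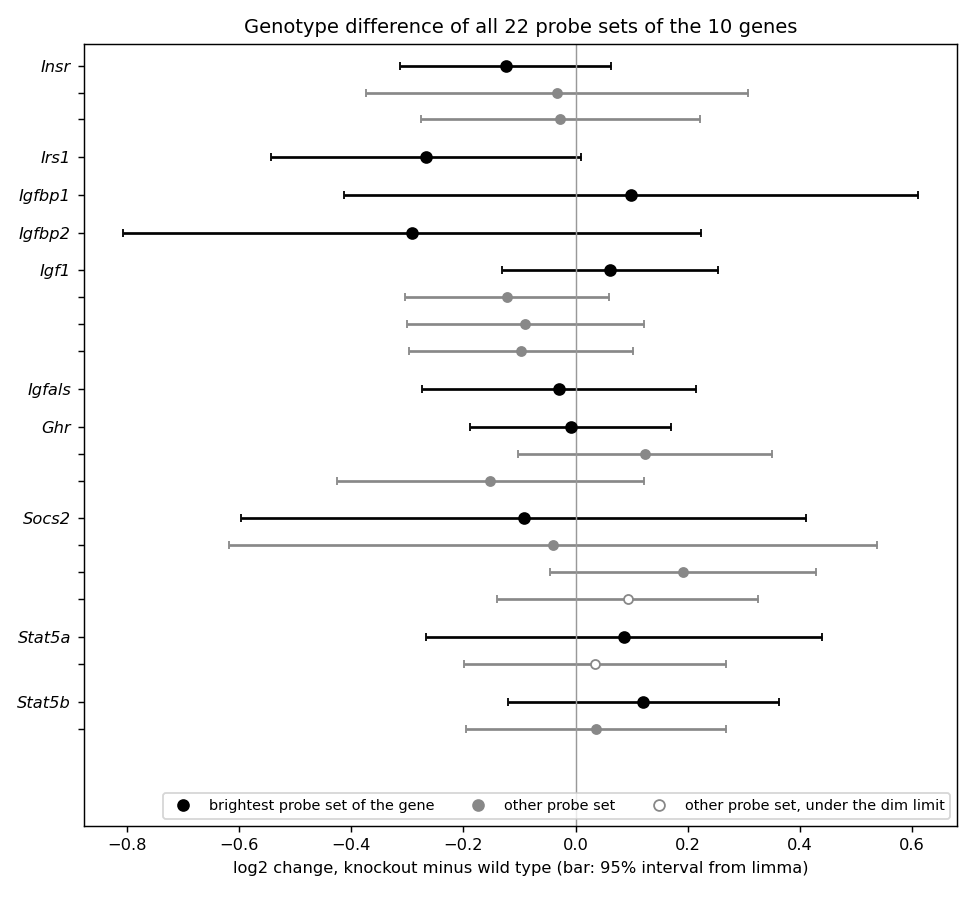
Log2 change, knockout minus wild type (horizontal axis), of each of the 22 probe sets, with its 95% interval from the limma fit of all probe sets with 1 symbol. Every interval includes 0, and those of Igfbp1, Igfbp2 and the 2 brighter Socs2 probe sets are the widest.

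The 10 genes differed among themselves mainly in their spread between pools of 1 genotype. Pooled SDs within genotypes were 0.39 for Igfbp1, 0.40 for Igfbp2 and 0.39 for Socs2, at percentiles 98.6, 98.7 and 98.5 of all genes tested, where the median gene had 0.13. Those of Insr and Igf1 were 0.06 and 0.07, at percentiles 7.34 and 11.7. Irs1, Igfals and Stat5b lay between, at percentiles 71.2, 54.0 and 52.1, and Stat5a at 90.9.

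Igfbp1 and Socs2 were highest on the same array, wild-type replicate 3, and lowest on the same array, wild-type replicate 2, with knockout replicate 3 next to the top in both (level with knockout replicate 2 for Igfbp1). After each gene's mean was taken away, their values differed by a root mean square of 0.18 over the 6 arrays, while each deviated from its own mean by 0.32. Igfbp2 had another order, with wild-type replicate 1 at the top and knockout replicate 1 at the bottom, and stood 0.53 from Igfbp1 and 0.55 from Socs2. Irs1 was also highest on wild-type replicate 1 and lowest on knockout replicate 1. It stood 0.21 from Igfbp2, while Irs1 deviated from its own mean by 0.20 and Igfbp2 by 0.35. Among all genes tested, the pattern most like that of Igfbp2, the most variable of the 10, was that of Fam167b, Rassf5 and Adcy4, at root mean square distances of 0.099, 0.10 and 0.13 over 6 arrays. With so many genes, some lie near any pattern over 6 arrays. Neither these distances nor those between the 10 genes were compared with a background.

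**Figure D3:**
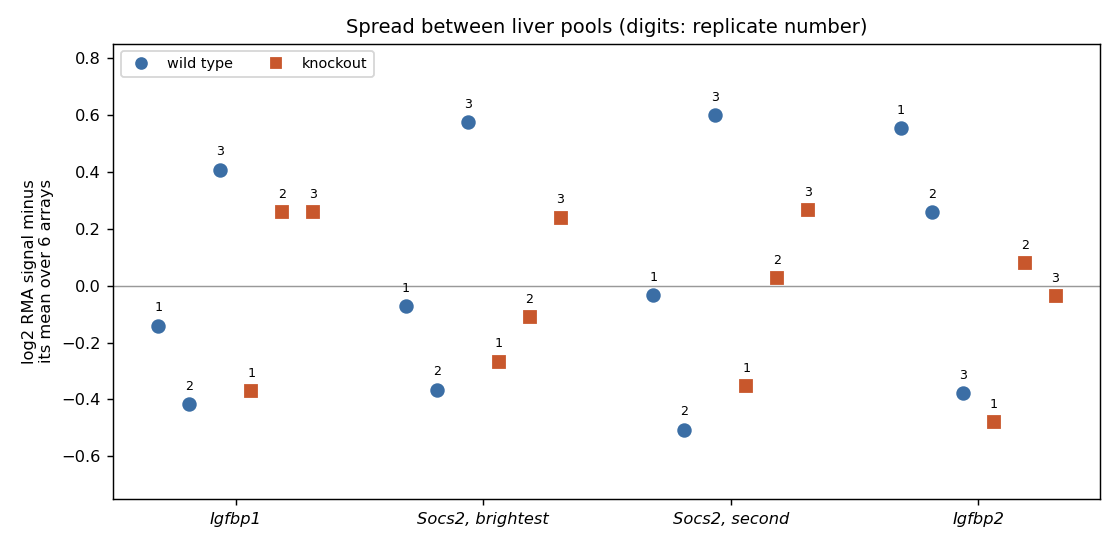
Log2 RMA signal minus its mean over the 6 arrays (vertical axis) for Igfbp1, the 2 brighter probe sets of Socs2, and Igfbp2, each point 1 array with its replicate number. Wild-type replicate 3 is the highest point for Igfbp1 and for both Socs2 probe sets and one of the 2 lowest for Igfbp2.

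The other genes of these pathways were read from 6 lists with 78 genes, of which 63 had a probe set with 1 symbol and 57 lay above the dim limit. Irs2 and Srebf1 were among those not analysed here, and Foxo1 and Pck1 were dim. In limma's test 0 of the 57 passed at adjusted p under 0.05, as did only 0.0401% of all genes. At an unadjusted p under 0.05, 7 were higher and 2 lower, where 7.37% and 2.18% of all genes were. Their median log2 change was 0.01. Where genotypes are said below not to overlap with the knockout higher, the share of all genes that did so was not counted.

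Igfbp3, which encodes the main carrier of IGF-1 in blood, showed the clearest difference of these genes. It read 4.81, 5.15 and 4.69 in wild type and 5.71, 6.18 and 6.35 in the knockout. All knockout arrays lay above all wild-type arrays, and the mean was 2.30-fold higher. This log2 change of 1.20 (SE 0.18) missed the threshold, with a limma adjusted p of 0.0742. Its adjusted p ranged from 0.0271 to 0.235 over the alternatives and passed without knockout replicate 1 (log2 change 1.38), with a variance trend and with array weights. In liver Igfbp3 is made largely by non-parenchymal cells, whose marker lists were also mostly higher in the knockout. The sinusoidal endothelial list averaged 5.26 to 5.64 in wild type and 5.60 to 5.99 in the knockout, and the stellate list 5.74 to 5.90 and 6.02 to 6.22. The macrophage list averaged 6.11 to 6.31 and 6.16 to 6.92, with knockout replicate 1 inside the wild-type range. The part of these cells in the Igfbp3 difference was not tested. The other 10 tested genes of the IGF list, among them Igf1r at -0.002, Igf2 at -0.16 and Igfbp4 at 0.08 on the log2 scale, did not reach an unadjusted p of 0.05.

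Of 18 tested genes in insulin receptor signalling, 11 had a higher and 7 a lower knockout mean (median log2 change 0.05). The adaptor Shc1 stood at 0.41, the kinase subunit Pik3ca at 0.19 and the translation repressor Eif4ebp1 at 0.28, with limma adjusted p-values of 0.336, 0.511 and 0.513. The genotypes did not overlap for Shc1 and Pik3ca and did for Eif4ebp1. Other probe sets of Shc1, Eif4ebp1 and Pik3ca did not all follow. The second of Shc1 gave -0.08 and that of Eif4ebp1 -0.08, but their means of 3.19 and 3.44 lay near the dim limit. The 4 others of Pik3ca above the dim limit gave between -0.14 and 0.20. Among 9 inhibitors of insulin signalling, 5 were higher and 4 lower (median 0.01). The receptor-binding adaptor Grb10 stood at 0.40 with no overlap (limma adjusted p = 0.253), at a wild-type mean of 3.26 that lay near the dim limit. Its other probe sets, both under the dim limit, gave -0.13 and 0.20. The insulin-responsive genes, 4 tested, split into 2 higher and 2 lower (median 0.08). The smallest p was that of the glycogen synthase Gys2 at 0.26 (limma adjusted p = 0.544), and the largest difference that of the pyruvate dehydrogenase kinase Pdk4 at -0.49 (limma adjusted p = 0.551).

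Growth hormone signalling genes were higher in 6 of 7 (median 0.09), with the smallest p for Stat3 at 0.20 (limma adjusted p = 0.551). The genotypes did not overlap for Stat3. Its other probe set, with a mean of 2.95 near the dim limit, gave -0.17. Cish, a STAT5-induced inhibitor related to Socs2, read 6.09, 6.00 and 5.72 in wild type and 6.28, 5.05 and 6.23 in the knockout, so 1 knockout array lay far below the rest (log2 change -0.08, limma adjusted p = 0.951). In the list of growth hormone target genes, 3 of 8 were higher and 5 lower (median -0.01). The list was not divided by whether growth hormone raises or lowers a gene, so this split gives no direction of hormone action. Before adjustment, limma's p lay under 0.05 for 4 of them, 2 with a higher and 2 with a lower knockout mean. That level was reached by 9.55% of all genes tested, 7.37% with a higher and 2.18% with a lower mean.

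Cyp2b9, a cytochrome P450, read 5.85, 4.94 and 2.71 in wild type and 7.45, 6.98 and 6.81 in the knockout. The genotypes did not overlap, and the wild-type arrays differed widely from each other (log2 change 2.58, SE 0.66, limma adjusted p = 0.29). Wild-type replicate 3, at 2.71, lay close to the dim limit, so the size of this change is uncertain. The change was 1.69 without wild-type replicate 3 and 3.25 without wild-type replicate 1. Serpina12, which encodes vaspin, stood at 0.38, and the steroid dehydrogenase Hsd3b5 at -0.41, with limma adjusted p-values of 0.374 and 0.431. The genotypes did not overlap for Serpina12 and did for Hsd3b5. Acot3, a peroxisomal acyl-CoA thioesterase, read 8.50, 8.62 and 8.58 in wild type and 8.11, 7.66 and 7.98 in the knockout, with no overlap (log2 change -0.65, SE 0.12, limma adjusted p = 0.145). Cyp2b9, Hsd3b5 and Acot3 belong to families of near-identical genes, so their probe sets may read relatives too.

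**Figure D4:**
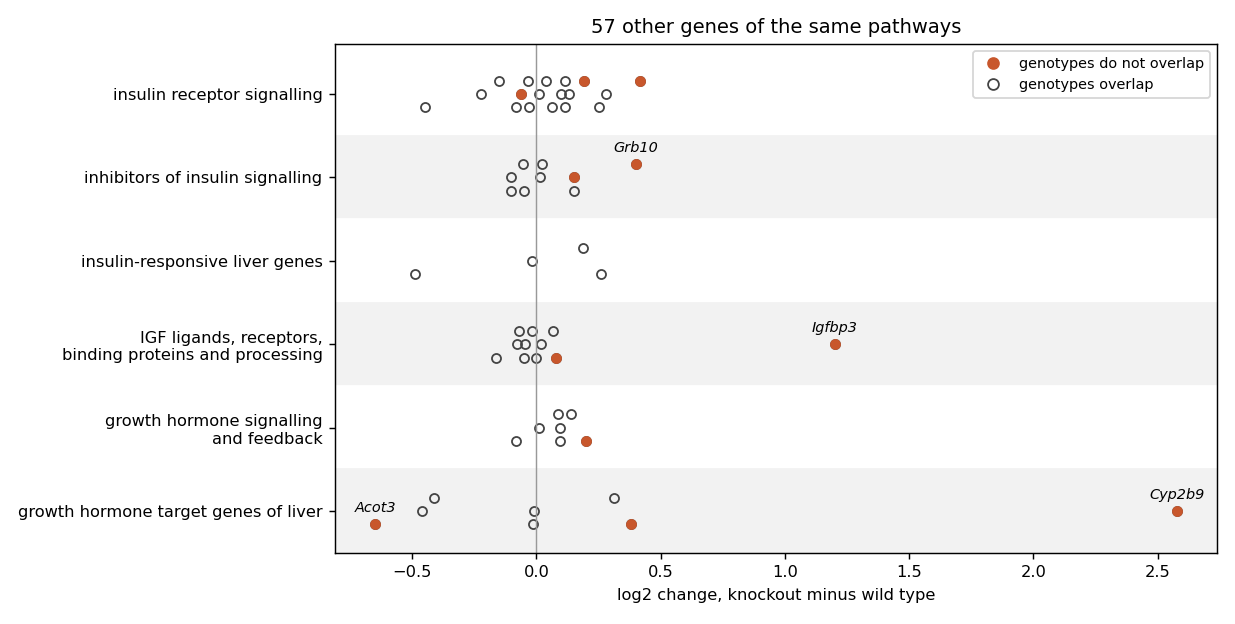
Log2 change, knockout minus wild type (horizontal axis), of the 57 other pathway genes tested, each point 1 gene in its list, filled where the values of the genotypes do not overlap. Most points lie close to 0, with Igfbp3 at 1.20 and Cyp2b9 at 2.58 apart from their lists. Acot3 at -0.65 is the lowest point, with Bcl6 at -0.46 and Hsd3b5 at -0.41 nearest to it in its list.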

How the data were processed

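Total liver RNA was extracted with Trizol, and 250 ng per array was labelled with a 3' IVT kit, per the labels' protocols, for MG-430 PM strip arrays of Affymetrix. The deposited values are log2 RMA signals (background-subtracted, quantile-normalized and summarised by the authors), made with affy and RMA per the submitters' processing notes, which also name limma. No version or genome build is stated in the labels. Quantile normalization makes array distributions alike, so a shift of most genes one way would be reduced. Array medians were 2.98 to 3.04, and the number of arrays limits the precision.

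Of 45141 probe sets, 28898 had 1 symbol in the platform annotation, 551 several, 15588 none, and 104 were controls. Only those with 1 symbol were used. Genotypes were compared over 12475 genes in R 4.3.3 by limma 3.58.1 (two-sided, lmFit then eBayes), the p-values were adjusted by Benjamini-Hochberg over all of them, and every probe set was fitted in a second run. The dim limit is a percentile and not a detection floor: nonspecific control probe sets reached 5.84, with array medians of 1.65 to 1.76. P-values measure the spread between pools.

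The genes named are the 10 axis genes with all their probe sets, Nrg4, every other pathway gene at an unadjusted p under 0.05 or the one of smallest p in its list, and the 3 genes most like the most variable of the 10. The values of Igf1r, Igf2, Igfbp4, Pdk4 and Cish were known when they were picked. The members and lists were chosen with earlier results of these data known. Alternatives were quantile normalization again, median centring, no filter or the 60th percentile, array weights, a robust prior or a variance trend in eBayes, the mean or the second brightest of a gene's probe sets, other thresholds, each array left out, and the replicate number as a block. The fit was tested on simulated data. Promoter windows came from RefSeq, assembly GRCm38.p6. Figures used matplotlib 3.10.9.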

Additional observations from a re-analysis of the deposited data

How the results depend on the processing

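In the limma fits 0 of the 10 axis genes were called under every alternative run, also at adjusted p under 0.10. At an unadjusted p under 0.05 the count was 0 in the main fit. The lowest adjusted p was 0.276, for Irs1 with array weights. Insr, Irs1, Igfbp2 and Stat5b kept their direction with the other normalizations, with array weights, with other probe sets and with each array left out in turn; the filters, the eBayes priors and the replicate block leave a log2 change as it is by construction, and so does the choice of probe set for Irs1 and Igfbp2, which have 1 probe set. Ranges over single arrays left out were -0.16 to -0.09, -0.37 to -0.18, -0.55 to -0.09 and 0.07 to 0.20. An unadjusted p under 0.05 occurred in 5 of the refits for Irs1, in 1 for Igfbp2 and in 0 for the other 8 genes. For Irs1 the refits of all arrays among them were quantile normalization again, median centring and array weights.

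Genes with changes near 0 turned sign. With array weights Socs2 was 0.14 and Stat5a -0.013. With the mean of all probe sets Igf1 was -0.062 and Socs2 0.038, and with the second brightest probe set Igf1 was -0.12 and Ghr 0.12. Over single arrays left out, Igfbp1 ranged from -0.084 to 0.33, Igfals from -0.13 to 0.044, Ghr from -0.031 to 0.011, Socs2 from -0.30 to 0.17 and Stat5a from -0.053 to 0.27. The cause was not tested.

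All genes called numbered 5 in the main comparison. The count was 8 after quantile normalization again, 3 with the 60th percentile filter, 29 with a variance trend, 50 with array weights, 3 with the mean of all probe sets, 30 at adjusted p under 0.10 and 1191 at an unadjusted p under 0.05. It ranged from 1 to 17 over single arrays left out, with 17 without knockout replicate 1. Other pathway genes called were 1 with a variance trend (Igfbp3), 2 with array weights (Igfbp3 and Acot3), 1 at adjusted p under 0.10, 9 at an unadjusted p under 0.05, and 0 to 1 over single arrays left out.

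Replicate numbers are shared by the genotypes but are not said to pair pools, and the deviations of same-numbered arrays from their genotype means had correlations across genes of -0.15, 0.03 and -0.01. With the replicate block 2 genes were called in all, and 0 of the 10.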
